A study of Homo sapiens with 9 samples.

Results

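The genes described here build ribosomes. They are 35 genes whose products transcribe ribosomal RNA, modify and cut it, or assemble the small and large ribosomal subunits in the nucleolus, together with a pair of polyamine-synthesis enzymes long known as MYC-responsive. The list is one of gene names, drawn up with earlier results of these data known, and each gene was read from 1 probe set, the one of highest mean. Values were obtained for 34 of the 35, among 18132 genes measured in all, and GNL3 was not analysed here. The set was split by role into 7 measured genes of ribosomal RNA transcription and nucleolar organisation, 7 of small nucleolar ribonucleoproteins (snoRNPs) and RNA modification, 8 of small subunit processing, 10 of large subunit processing and 2 of polyamine synthesis.

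Levels were measured on 9 Affymetrix PrimeView arrays in MDA-MB231 cells, a widely used line derived from human breast cancer. Cells were kept in serum-containing medium for 24 h with 3 µM PD325901 (3 arrays), 10 µM BB94 (2 arrays) or 0.1% DMSO, the vehicle (4 arrays, called control). PD325901 inhibits MEK, the kinase that activates ERK, and BB94, or batimastat, inhibits metalloproteinases broadly. All 3 groups are of 1 cell line, both inhibitors came from DMSO stocks, each was used at 1 dose and 1 time, and the labels call the samples biological replicates without saying whether cultures were handled on separate days.

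Ribosome production starts in the nucleolus, where RNA polymerase I transcribes a long precursor RNA that is then modified under the guidance of snoRNPs and cut by successive processing complexes into the RNAs of both subunits. The transcription factor MYC, which binds DNA with its partner MAX, preferentially at the E-box CACGTG, is known for activating many genes of this pathway in growing cells. ERK signalling is known to raise MYC in several ways, among them a phosphorylation that stabilises the MYC protein.

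Of the 34 genes, 20 were lower after PD325901 than in control and 0 were higher, at an adjusted p under 0.05 in limma's moderated test over all genes. This is 58.8% of the set, against 12.3% of all 18132 genes called lower and 22.8% called higher. Fitted over the 10995 genes with a mean of at least 6, 21 of the 34 were lower and 0 higher. Of those 10995 genes, 20.8% were called lower and 32.4% higher. At an unadjusted p under 0.05, 23 of the 34 were lower and 0 higher, where 42.3% of all genes differed either way. The median log2 change of the set was -0.36, against 0.08 over all genes, and the changes ran from -0.97 for LYAR to 0.09 for NOB1. The fitted change was below 0 for 33 of the 34, against 35.5% of all genes. All 3 PD325901 arrays lay below all 4 control arrays for 24 of them (70.6%), against 14.8% of all genes. In bulk RNA, fewer cells of a kind and less RNA per cell cannot be told apart.

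The fall was of similar depth on every PD325901 array. The median difference of the 34 genes from their control mean was -0.37, -0.32 and -0.41 on PD325901 arrays 1 to 3, 0.04 and -0.02 on BB94 arrays 1 and 2, and -0.10, -0.04, 0.06 and 0.00 on control arrays 1 to 4. The median SD of a gene between replicate arrays was 0.06 under PD325901, 0.05 under BB94 and 0.13 in control on the log2 scale. Control arrays were thus the most variable, as they were over all genes (0.16 in control, 0.09 under PD325901 and 0.08 under BB94). These SDs rest on unlike numbers of arrays, 4, 3 and 2. The set's lowest control median lay well above its highest PD325901 median.

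**Figure D1:**
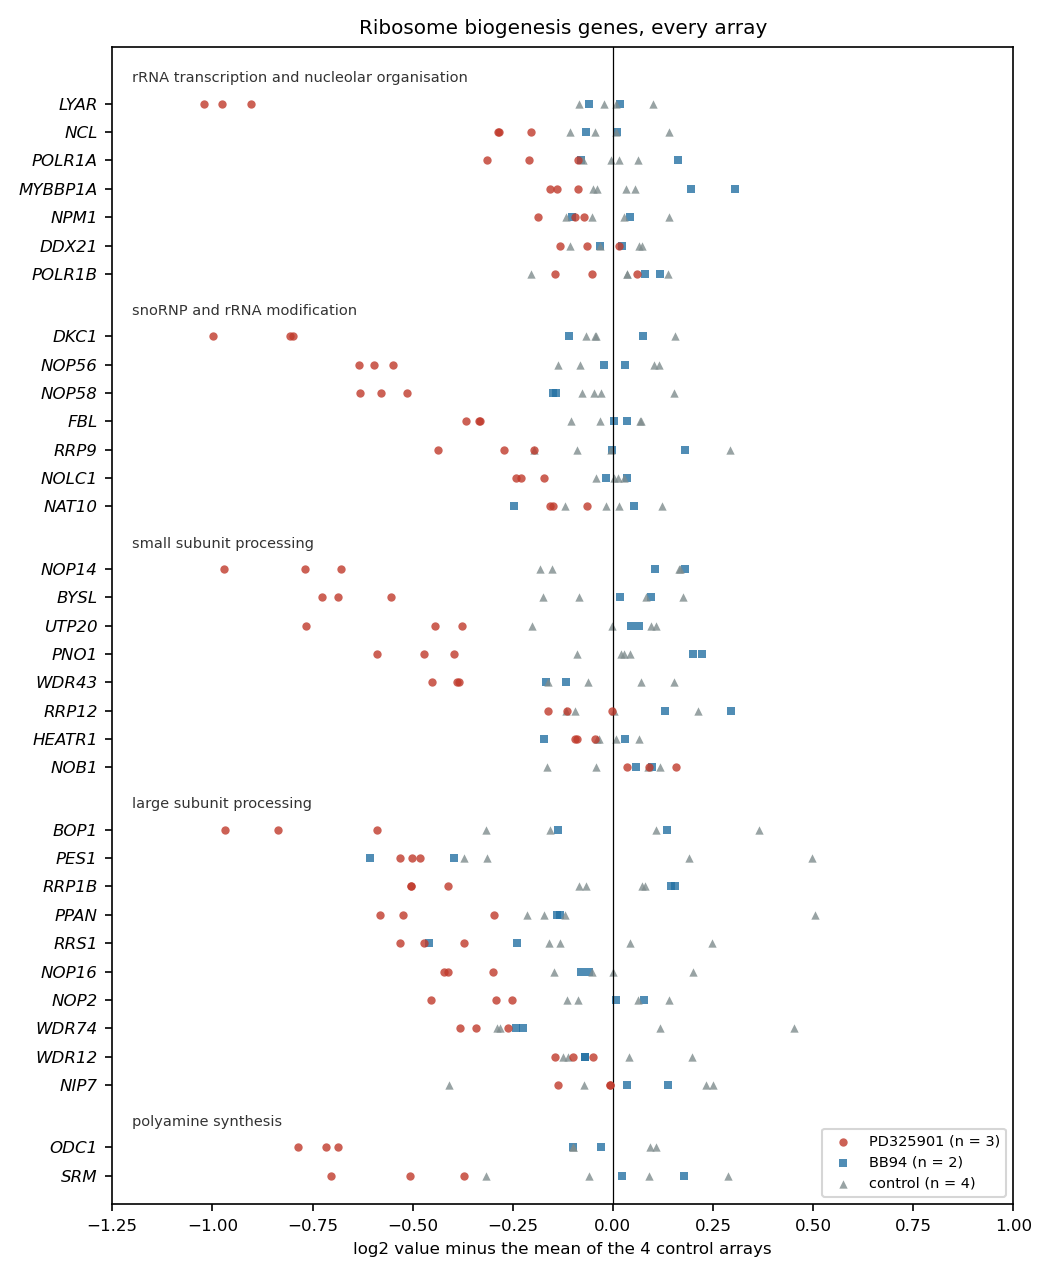
Each row is a gene of the set and each point an array: circles are PD325901 (3 arrays), squares BB94 (2) and triangles control (4). The horizontal axis is the log2 value minus the mean of the 4 control arrays. For 24 genes the 3 circles lie left of every triangle, with the widest gaps at LYAR and DKC1, while squares and triangles mostly mix.

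Over whole arrays, the first principal component (73.3% of the variance) put the PD325901 arrays at 51.4 to 51.7 and the other arrays at -29.1 to -20.1. The second (10.2%) put control arrays 1 and 2 at 24.99 and 6.43, and control arrays 3 and 4 at -18.45 and -23.88, and this division touches several genes below. Genes used to read ERK output fell after PD325901, with log2 changes of -4.01 for DUSP6 (adjusted p = 0.00015) and -3.29 for CCND1 (adjusted p = 3.6e-08). The DUSP6 level differed between PD325901 arrays 1 to 3, at 11.04, 8.99 and 8.02, against 13.24 to 13.52 in control. The mesenchymal genes VIM, CD44 and AXL, known to be high in this line, were above background on all 9 arrays, and ESR1 and PGR, known to be low in it, on 0. EPCAM, listed as low, was above background on all 9 at 9.24 to 9.68. Leukocyte markers PTPRC and CD3E and the hepatocyte markers ALB and TTR were below background on all 9, and the hepatocyte marker APOA1 was above it on all 9. The difference between 3' and 5' ACTB probe sets, a sign of RNA integrity, was 4.15, 3.61 and 3.50 under PD325901, 3.91 and 4.22 under BB94, and 3.89, 3.75, 3.46 and 2.96 in control, and its part in the results was not tested.

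MYC itself was lower after PD325901. Its log2 level was 9.10, 9.14 and 9.48 on PD325901 arrays 1 to 3, 11.03 and 10.97 on BB94 arrays 1 and 2, and 11.20, 11.22, 10.29 and 9.74 on control arrays 1 to 4. All PD325901 arrays lay below all control arrays, and the controls spread widely, with arrays 3 and 4 below arrays 1 and 2. The set's medians on control arrays 1 to 4 were -0.10, -0.04, 0.06 and 0.00, not lower on arrays 3 and 4. Any relation between the MYC level and the set was not tested. The log2 change of MYC for PD325901 was -1.37 (SE 0.31, 2.59-fold lower, adjusted p = 0.0057). For MYC it was -1.97 against control arrays 1 and 2 alone and -0.78 against control arrays 3 and 4 alone, and it was called in both. MYC under BB94 was 0.39 above control (adjusted p = 0.83). Of the 11 measured genes of the MYC network, 1 (MYC) was lower (9.09%, against 12.3% of all genes) and 3 were higher (27.3%, against 22.8%) after PD325901, so neither count stands far from that of all genes. MXI1, a MAX partner that opposes MYC, was higher by 0.86 (adjusted p = 0.00062). MYCL, a MYC relative, was above background on all 3 PD325901 arrays and on 0 of 4 control arrays, at least 1.25-fold higher (means 6.53 under PD325901 and 4.92 in control, adjusted p = 4.4e-06). MNT, another MYC antagonist, named after its values were seen, was higher by 0.65 (adjusted p = 7.7e-05).

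To set the E-box beside these values, promoter windows of 250 bases before to 50 bases after each gene's start were read from RefSeq (GRCh38.p14), which held 28 of the 34 genes. CACGTG, which reads the same on both strands, occurred in a window of 15 of the 28 (53.6%), against 10.9% of the 14425 measured genes with a window. Among the 15 matched genes called lower after PD325901, 10 held it (66.7%), and among the 13 not called, 5 did (38.5%). The 6 genes without a window were BOP1, NOP58, NOLC1, RRS1, RRP1B and RRP12. All of these but RRP12 were called lower, so the missing windows fall mostly on the called side. Most matches were near the start: 14 of 16 lay within 50 bases of it. The genes were listed in part for their known response to MYC, so the share describes the list. A match is a run of letters and does not show binding.

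Windows of 5 called genes are shown. They are those with the largest falls among called genes whose window held CACGTG, and DKC1. DKC1 had the largest fall among called genes with a window but no match. Presence of the motif was thus part of the choice. Capitals mark CACGTG, and each window is written on its gene's own strand. The LYAR window lies at chr4:4289972-4290271 on the minus strand with the motif at base -64, and the gene's other window had no match. The NOP14 window, chr4:2963357-2963656 on the minus strand, has it at +16. The ODC1 window, chr2:10447963-10448262 on the minus strand, has it at -29 and +6, and the gene's other window had no match. The BYSL window, chr6:41921249-41921548 on the plus strand, has it at +29. The DKC1 window, chrX:154762614-154762913 on the plus strand, has 0 matches.
LYAR: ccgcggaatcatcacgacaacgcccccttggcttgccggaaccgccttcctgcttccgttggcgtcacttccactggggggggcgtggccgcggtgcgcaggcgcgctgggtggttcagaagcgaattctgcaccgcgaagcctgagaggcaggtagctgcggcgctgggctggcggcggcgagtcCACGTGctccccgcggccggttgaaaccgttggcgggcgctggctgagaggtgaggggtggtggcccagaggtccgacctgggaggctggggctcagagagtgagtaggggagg
NOP14: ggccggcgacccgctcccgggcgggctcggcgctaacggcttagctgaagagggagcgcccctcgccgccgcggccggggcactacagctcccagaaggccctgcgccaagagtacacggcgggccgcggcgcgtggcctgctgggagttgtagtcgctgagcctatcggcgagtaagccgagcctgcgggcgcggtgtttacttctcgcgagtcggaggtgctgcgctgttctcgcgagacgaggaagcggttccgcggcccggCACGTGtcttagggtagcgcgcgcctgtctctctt
ODC1: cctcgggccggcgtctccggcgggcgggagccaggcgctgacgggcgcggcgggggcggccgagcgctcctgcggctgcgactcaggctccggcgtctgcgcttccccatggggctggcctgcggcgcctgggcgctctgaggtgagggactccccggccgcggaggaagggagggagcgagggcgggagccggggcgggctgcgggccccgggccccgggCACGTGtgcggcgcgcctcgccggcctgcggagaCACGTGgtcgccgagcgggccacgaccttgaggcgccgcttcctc
BYSL: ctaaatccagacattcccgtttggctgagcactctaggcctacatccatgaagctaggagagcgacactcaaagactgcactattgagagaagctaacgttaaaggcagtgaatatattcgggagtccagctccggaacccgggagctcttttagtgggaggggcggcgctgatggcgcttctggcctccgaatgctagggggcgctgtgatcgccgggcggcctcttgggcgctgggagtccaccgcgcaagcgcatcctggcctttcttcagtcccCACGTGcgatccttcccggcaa
DKC1: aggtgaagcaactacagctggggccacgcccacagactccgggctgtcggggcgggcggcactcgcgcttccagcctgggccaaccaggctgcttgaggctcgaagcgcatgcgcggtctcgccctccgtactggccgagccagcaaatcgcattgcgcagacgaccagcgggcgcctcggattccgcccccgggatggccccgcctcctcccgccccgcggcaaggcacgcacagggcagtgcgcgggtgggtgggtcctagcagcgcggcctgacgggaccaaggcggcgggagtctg

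Among the genes of ribosomal RNA transcription and nucleolar organisation, 2 of 7 were lower after PD325901 (28.6%, against 12.3% of all genes). Fitted over genes with a mean of at least 6, 20.8% were called lower, and the count of 2 stands near that share. The group's median change was -0.13. LYAR, a nucleolar zinc-finger protein that promotes cell growth, had log2 levels of 10.33, 10.44 and 10.37 under PD325901, 11.37 and 11.29 under BB94, and 11.45, 11.35, 11.33 and 11.26 in control. Its PD325901 arrays lay 0.82 below the lowest control, the widest gap of the set, and its BB94 arrays lay among the controls. The change of -0.97 (SE 0.08) is 1.95-fold (adjusted p = 4.6e-06). NCL, nucleolin, one of the most abundant nucleolar proteins, had 12.79, 12.71 and 12.71 under PD325901, 13.01 and 12.93 under BB94, and 13.14, 13.00, 12.95 and 12.89 in control. The NCL groups did not overlap between PD325901 and control, but the change was small at -0.26 (adjusted p = 0.031). It lost its call without control array 2 (adjusted p = 0.072) and without PD325901 array 1 (0.058), 2 (0.11) or 3 (0.10). The NCL call was also lost against control arrays 3 and 4 alone.

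The 2 polymerase subunits of the set were not called. POLR1A, the largest subunit of RNA polymerase I, had a log2 change of -0.20 (adjusted p = 0.11, 95% interval -0.40 to -0.00) with its 3 PD325901 arrays just below the controls. POLR1B, the other large catalytic subunit, had 12.70, 12.59 and 12.50 under PD325901, 12.76 and 12.72 under BB94, and 12.68, 12.68, 12.78 and 12.44 in control. The POLR1B groups overlapped, and the change was -0.05 (adjusted p = 0.78, 95% interval -0.26 to 0.17). That interval is of the probe set used. Other POLR1B probe sets had -0.27, -0.31 and -0.28, called lower over all probe sets, and -0.10 and -0.05, not called. NPM1, nucleophosmin, a histone-binding nucleolar chaperone, stood at -0.12. The helicase gene DDX21, which acts in ribosomal RNA transcription and processing, stood at -0.06. MYBBP1A, a nucleolar MYB-binding protein, stood at -0.13 (adjusted p = 0.22). Of the 13 other genes of RNA polymerase I and its factors, 4 were lower and 2 higher, with a median of -0.17. The share lower was 30.8%, against 12.3% of all genes and 20.8% of genes with a mean of at least 6. With 13 genes, this count stands near the latter share. Lowest of the 13 was TAF1A, a subunit of the promoter selectivity factor, at -0.76 (adjusted p = 0.00088). The polymerase subunit genes POLR1E and POLR1G followed at -0.60 (0.00036) and -0.53 (0.0016).

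The snoRNP and modification genes were lower in 5 of 7 cases (71.4%, against 12.3% of all genes), with a median of -0.34. DKC1, which encodes dyskerin, the pseudouridine synthase of box H/ACA snoRNPs and a telomerase component, had 10.04, 10.05 and 9.85 under PD325901, 10.92 and 10.74 under BB94, and 10.80, 11.00, 10.78 and 10.80 in control. Every PD325901 array of DKC1 lay at least 0.73 below every control. The change of -0.87 (SE 0.09) is 1.83-fold (adjusted p = 3.6e-05). NOP56, a core protein of box C/D snoRNPs, which guide ribose methylation, had 12.67, 12.71 and 12.63 under PD325901, 13.24 and 13.29 under BB94, and 13.13, 13.18, 13.37 and 13.38 in control. The NOP56 groups were clearly separate, with a change of -0.59 (SE 0.09, 1.51-fold, adjusted p = 0.00032).

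Of the other core proteins of the box C/D particle, NOP58 and FBL also fell. NOP58 changed by -0.57 (adjusted p = 0.00026) and FBL, fibrillarin, the methyltransferase of the particle, by -0.34 (adjusted p = 0.0046). SNU13, a core protein that binds the guide RNA, named after its values were seen, stood at -0.03 (adjusted p = 0.81). NOLC1, a chaperone that carries snoRNPs to the nucleolus, changed by -0.21 (adjusted p = 0.035). The NOLC1 call was lost when 1 array was left out, for control 2 (adjusted p = 0.086) and PD325901 arrays 1 (0.067), 2 (0.12) and 3 (0.11), with cyclic loess (0.098) and with p-values adjusted over all probe sets (0.061). It was also lost against control arrays 3 and 4 alone and with replicate number as a block. RRP9, a protein of the snoRNP that guides early cleavage, stood at -0.30 (adjusted p = 0.081) and was called without control array 1 (-0.37, adjusted p = 0.028). NAT10, the acetyltransferase of ribosomal RNA, had 9.15, 9.24 and 9.14 under PD325901, 9.35 and 9.05 under BB94, and 9.18, 9.28, 9.31 and 9.42 in control. The NAT10 arrays of all 3 groups overlapped (change -0.12, adjusted p = 0.38). Of 13 further snoRNP assembly genes, 3 were lower and 0 higher (23.1% lower, against 12.3% of all genes, median -0.15). Fitted over genes with a mean of at least 6, 20.8% of genes were called lower, so this count stands near that share. TCOF1, treacle, which links polymerase I transcription to RNA modification, fell by 1.19 on the log2 scale (SE 0.11, adjusted p = 1.4e-05), with arrays at 8.37 to 8.46 under PD325901 against 9.30 to 9.76 in control. NAF1, an H/ACA assembly factor, changed by -0.62 (adjusted p = 0.0012) and NUFIP1, a C/D assembly factor, by -0.25 (adjusted p = 0.030). The NUFIP1 call was lost without control array 3 (adjusted p = 0.069) and without PD325901 array 1 (0.14), 2 (0.050) or 3 (0.062). It was also lost against control arrays 1 and 2 alone and with replicate number as a block.

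**Figure D2:**
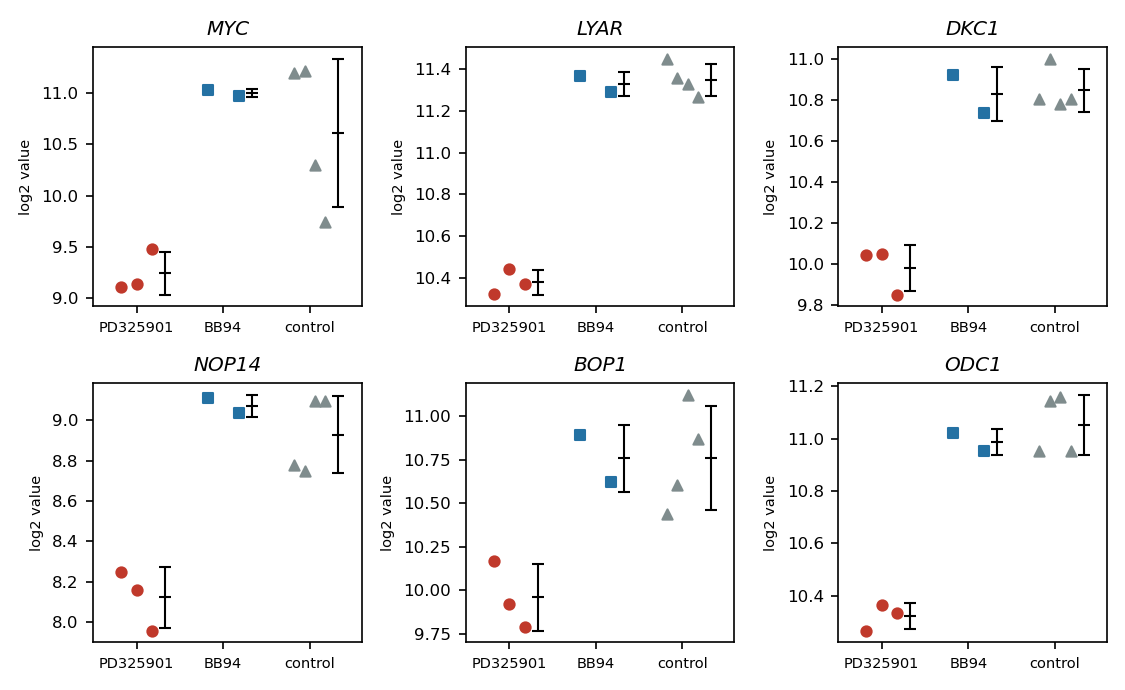
Log2 level on every array for MYC and 5 genes of the set, with PD325901 at the left, BB94 in the middle and control at the right, and the mean with 1 SD beside each group (n = 3, 2 and 4). Each vertical axis has its own range and does not start at 0. All PD325901 points lie below all others in every panel, and the MYC controls run from 9.74 to 11.22.

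Small subunit processing genes were lower in 5 of 8 cases (62.5%, against 12.3% of all genes), with a median of -0.45. NOP14, a component of the small subunit processome, the large complex that forms on the precursor RNA, had 8.25, 8.16 and 7.96 under PD325901, 9.11 and 9.03 under BB94, and 8.78, 8.75, 9.10 and 9.09 in control. The highest PD325901 array of NOP14 lay 0.50 below the lowest control. The change of -0.81 (SE 0.12) is 1.75-fold (adjusted p = 0.00028). BYSL, bystin, which acts in late maturation of the small subunit, had 10.86, 10.73 and 10.69 under PD325901, 11.51 and 11.43 under BB94, and 11.24, 11.33, 11.50 and 11.59 in control. The BYSL groups were separate, with a change of -0.66 (SE 0.10, 1.57-fold, adjusted p = 0.00040). Averaging in its other probe sets, which lay below background, gave -0.18 for BYSL (adjusted p = 0.22).

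A further 3 genes of this group fell. UTP20, a processome scaffold, changed by -0.53 (adjusted p = 0.0038), PNO1, a late small subunit factor and partner of NOB1, by -0.49 (adjusted p = 0.00062), and WDR43, a processome subunit, by -0.41 (adjusted p = 0.0044). NOB1, the endonuclease that makes the last cut in the small subunit RNA, had 12.28, 12.22 and 12.16 under PD325901, 12.22 and 12.19 under BB94, and 11.96, 12.08, 12.24 and 12.21 in control. The NOB1 arrays of PD325901 and control overlapped (change 0.09, adjusted p = 0.48). Its sign depends on scaling: it was -0.16 with arrays centred on their median over genes. HEATR1, a processome component needed for polymerase I transcription, stood at -0.08 (adjusted p = 0.52) and RRP12, an export factor of the small subunit, at -0.09 (adjusted p = 0.54). Of 31 other small subunit processome genes, 11 were lower and 2 higher (35.5% lower, against 12.3% of all genes, median -0.22). RRP7A changed by -0.78 (adjusted p = 0.00039) and UTP15 by -0.53 (adjusted p = 0.017). UTP15 lost its call without PD325901 array 1 (adjusted p = 0.056) or 2 (0.062). RIOK2, a kinase of late small subunit maturation, was higher by 0.52 (adjusted p = 0.0039), and by 0.27 with arrays centred on their median over genes, where the call was lost (adjusted p = 0.082).

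Large subunit processing genes were lower in 6 of 10 cases (60%, against 12.3% of all genes), with a median of -0.42. BOP1 forms with PES1 and WDR12 a complex needed to process the large subunit RNA. It had 10.17, 9.92 and 9.79 under PD325901, 10.90 and 10.62 under BB94, and 10.44, 10.60, 11.12 and 10.87 in control. All PD325901 arrays of BOP1 lay below all others, although the controls ran from 10.44 to 11.12. The change of -0.80 (SE 0.16) is 1.74-fold (adjusted p = 0.0027).

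Its partners were not called with all arrays. PES1 had 7.76, 7.73 and 7.78 under PD325901, 7.87 and 7.66 under BB94, and 7.95, 7.89, 8.76 and 8.45 in control. The PES1 arrays of both inhibitors lay below all controls, and the PD325901 and BB94 arrays overlapped. Its change of -0.50 (SE 0.19, 95% interval -0.92 to -0.09) missed the threshold for PD325901 (adjusted p = 0.062). PES1 was called in 9 of 21 alternative settings, among them without control array 1 (-0.61, adjusted p = 0.021) or 2 (-0.63, adjusted p = 0.022). WDR12 stood at -0.10 (adjusted p = 0.48, 95% interval -0.30 to 0.11). Differences between the 3 partners were not tested.

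The other called large subunit genes had smaller changes than BOP1. RRP1B, a nucleolar processing factor, changed by -0.47 (adjusted p = 0.00073), RRS1, an assembly factor, by -0.46 (adjusted p = 0.0085), NOP16 by -0.38 (adjusted p = 0.0086) and NOP2, a cytosine methyltransferase of the large subunit RNA, by -0.33 (adjusted p = 0.016). NOP2 lost its call without PD325901 array 3 (-0.27, adjusted p = 0.079), against control arrays 1 and 2 alone, and with replicate number as a block. PPAN, an assembly factor, changed by -0.47 (adjusted p = 0.048). The PPAN call was lost without control array 4 (adjusted p = 0.058), either BB94 array (0.070) or PD325901 array 1 (0.053), 2 (0.16) or 3 (0.13), and without control array 3 the change was -0.30 (0.038). It was also lost against control arrays 1 and 2 alone, with replicate number as a block, without collapse and with only the groups compared. WDR74 stood at -0.33 (adjusted p = 0.16) and was called without control array 1 (-0.42). NIP7, an assembly factor, had 11.69, 11.56 and 11.69 under PD325901, 11.84 and 11.74 under BB94, and 11.93, 11.95, 11.63 and 11.29 in control. The NIP7 controls covered the whole range of its PD325901 arrays, and the change of -0.05 (adjusted p = 0.84) turned to 0.03 without control array 1 or 2. Of 36 other large subunit assembly genes, 18 were lower and 1 higher (50% lower, against 12.3% of all genes, median -0.24). MRTO4, an assembly factor of the ribosomal stalk, changed by -0.94 (adjusted p = 9.2e-06), NOL9, a polynucleotide kinase, by -0.68 (adjusted p = 0.00030) and TEX10 by -0.66 (adjusted p = 3.4e-05).

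Both polyamine genes were lower. ODC1, ornithine decarboxylase, the rate-limiting enzyme of polyamine synthesis, had 10.27, 10.37 and 10.34 under PD325901, 11.02 and 10.95 under BB94, and 10.95, 11.14, 11.16 and 10.95 in control. The highest ODC1 array of PD325901 lay 0.59 below the lowest control, and the BB94 arrays lay among the controls. The change of -0.73 (SE 0.08) is 1.66-fold (adjusted p = 6.2e-05). SRM, spermidine synthase, had 11.47, 11.33 and 11.14 under PD325901, 12.02 and 11.86 under BB94, and 11.52, 11.78, 12.13 and 11.93 in control. The lowest SRM control was 0.05 above the highest PD325901 array, and the change was -0.53 (SE 0.14, 1.44-fold, adjusted p = 0.013). The SRM call was lost without PD325901 array 3 (-0.44, adjusted p = 0.063). It was also lost against control arrays 1 and 2 alone and with replicate number as a block.

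Of 8 further polyamine enzymes and regulators, 4 were lower and 1 higher (50% lower, against 12.3% of all genes, median -0.40). On the synthetic side, the spermine synthase gene SMS changed by -0.60 (adjusted p = 0.00011) and AMD1, which supplies the aminopropyl donor, by -0.54 (adjusted p = 0.00068), both named after their values were seen. On the catabolic side, SMOX, spermine oxidase, changed by -0.63 (adjusted p = 0.00061) and SAT1, the acetyltransferase that marks polyamines for export and breakdown, by -0.61 (adjusted p = 0.0015). PAOX, which oxidises acetylated polyamines, was higher by 0.95 (adjusted p = 4.2e-05), at 9.69 to 9.98 under PD325901 against 8.74 to 9.04 in control.

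**Figure D3:**
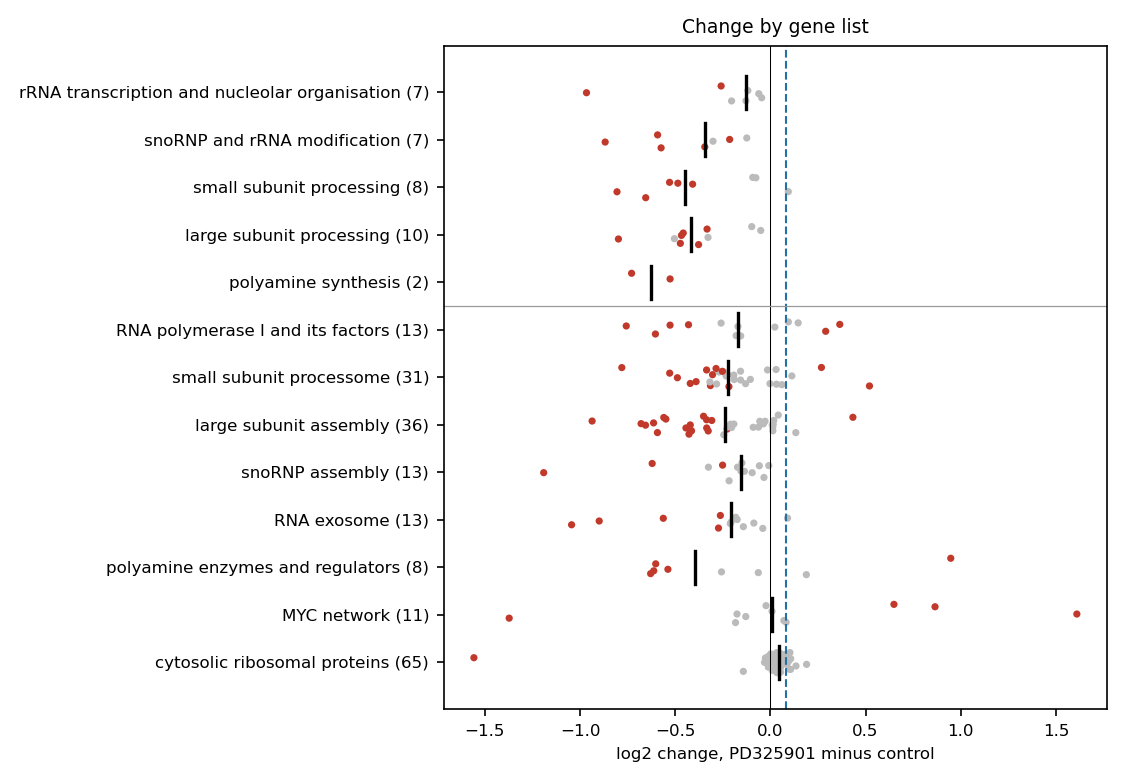
Log2 change of PD325901 minus control for each gene, in rows of gene lists with the number measured in brackets; rows above the grey line hold the 34 genes, those under it other lists. Red points have an adjusted p under 0.05, black bars are list medians and the dashed line is the median of all genes, 0.08. List medians of the processing groups lie between -0.45 and -0.34, that of the 65 ribosomal protein genes at 0.04.

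Genes whose products degrade and trim ribosomal RNA precursors, the RNA exosome and its helpers, were lower in 5 of 13 cases. The share was 38.5%, against 12.3% of all genes, with 0 higher and a median of -0.21. EXOSC2 changed by -1.04 (adjusted p = 9.3e-06), EXOSC8 by -0.90 (adjusted p = 1.2e-05) and EXOSC3 by -0.56 (adjusted p = 0.00024). EXOSC3 was -0.17 and not called (adjusted p = 0.21) when its probe sets were averaged.

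The genes of the ribosome's own proteins were listed separately. Of 65 measured genes of cytosolic ribosomal proteins (of 78 listed), 1 was lower and 0 higher after PD325901 (1.54%, against 12.3% of all genes called lower), and the median change was 0.04. The quartiles of the change were close together, at 0.018 and 0.059. Whether probe set brightness limits these changes was not tested. The list's median difference from control was 0.01, 0.02 and 0.11 on PD325901 arrays 1 to 3, where the 34 genes of the set stood at -0.37, -0.32 and -0.41. The difference between the lists was not tested. The gene called was RPL27A, whose level was 7.10, 6.90 and 7.10 under PD325901, 8.26 and 8.20 under BB94, and 8.62, 8.36, 8.75 and 8.65 in control. RPL27A changed by -1.56 (SE 0.10, adjusted p = 1.3e-06). Ribosomal protein genes have many near-identical pseudogenes, and which copies a probe set reads was not tested.

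The E-box was counted in the same lists. CACGTG occurred in a promoter window of 39.4% of 33 large subunit assembly genes and 31% of 29 small subunit processome genes. It occurred in 9.09% of 11 exosome genes, 8.33% of 12 polymerase I genes and 7.27% of 55 ribosomal protein genes. In the smallest lists it occurred in 22.2% of 9 snoRNP assembly genes, 30% of 10 MYC network genes and 0% of 5 polyamine genes. Over all measured genes with a window the share was 10.9%. No relation between motif and change was tested.

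The probe set chosen for a gene affected the size of its change. Another 38 probe sets of 21 of the 34 genes lay above background on all 9 arrays. Adjusted over all 49293 probe sets, 22 of the 38 were lower after PD325901 and 0 higher, and all 38 fitted changes were below 0. Of all probe sets, 12.1% were called lower, a share that also counts probe sets below background. The change was more negative than that of the probe set used in 27 of the 38. NOLC1 had -0.77 beside -0.21, PNO1 -0.85 beside -0.49, NOP58 -0.94 beside -0.57 and WDR43 -0.82 beside -0.41. Another 4 genes that were not called had a different probe set called lower: POLR1B, MYBBP1A, DDX21 and NIP7. For NIP7 the second probe set had -0.52 beside -0.05, and for MYBBP1A the lowest had -0.43 beside -0.13. The probe set used always has the higher mean by the rule, and whether brightness, transcript form or cross-hybridisation moves with the change was not tested.

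**Figure D4:**
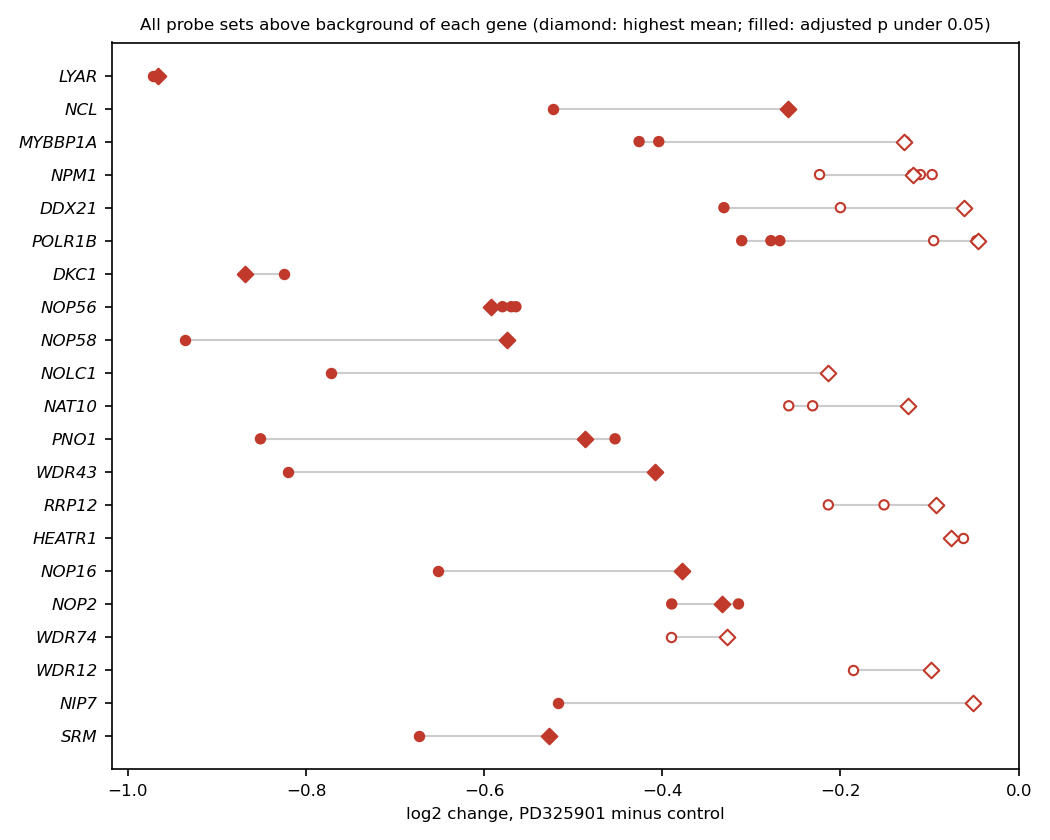
Log2 change of PD325901 minus control for every probe set above background on all 9 arrays, for the 21 genes of the set with more than 1. Diamonds are the probe sets used and circles the others; filled symbols have an adjusted p under 0.05 over all 49293 probe sets, by which the NOLC1 diamond (0.061) is open. All symbols lie left of 0, and the circles lie mostly left of the diamonds.

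Under BB94, the metalloproteinase inhibitor, the set had a median log2 change of 0.00, against -0.02 over all genes. Of the 34 genes, 0 were called against control in limma, where 1.58% of all genes were called either way. At an unadjusted p under 0.05, 4 of the 34 were different (11.8%), against 10.9% of all genes. They were MYBBP1A at 0.25 and PNO1 at 0.21 above control, and PES1 at -0.50 and RRS1 at -0.35. Of the 34 fitted changes, 16 were below 0, against 57.1% of all genes. Both BB94 arrays lay below all controls for 3 genes (11% of all genes) and above them for 3 (6.35% of all genes). With 2 BB94 arrays the intervals are wide: for DKC1 the BB94 change was -0.02 (95% interval -0.25 to 0.22) and for BOP1 0.00 (-0.41 to 0.41).

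RRS1 and PES1 were the genes lowest under BB94. RRS1 had 9.87, 10.03 and 9.93 under PD325901, 10.16 and 9.94 under BB94, and 10.24, 10.27, 10.44 and 10.65 in control. All RRS1 arrays of both inhibitors lay below all controls. Against control arrays 3 and 4 alone, 3 genes were called lower under BB94, namely PES1 (-0.85, adjusted p = 0.0083), RRS1 (-0.50, adjusted p = 0.035) and WDR74, while 4.27% of all genes were called lower and 4.74% higher in that setting. Of the genes in the other lists of the pathway, SAT1 alone was called under BB94, at -0.70 (adjusted p = 0.024). The SAT1 call was lost without control array 3 (adjusted p = 0.061), BB94 array 1 (0.12) or 2 (0.33), or PD325901 array 2 (0.052).

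**Figure D5:**
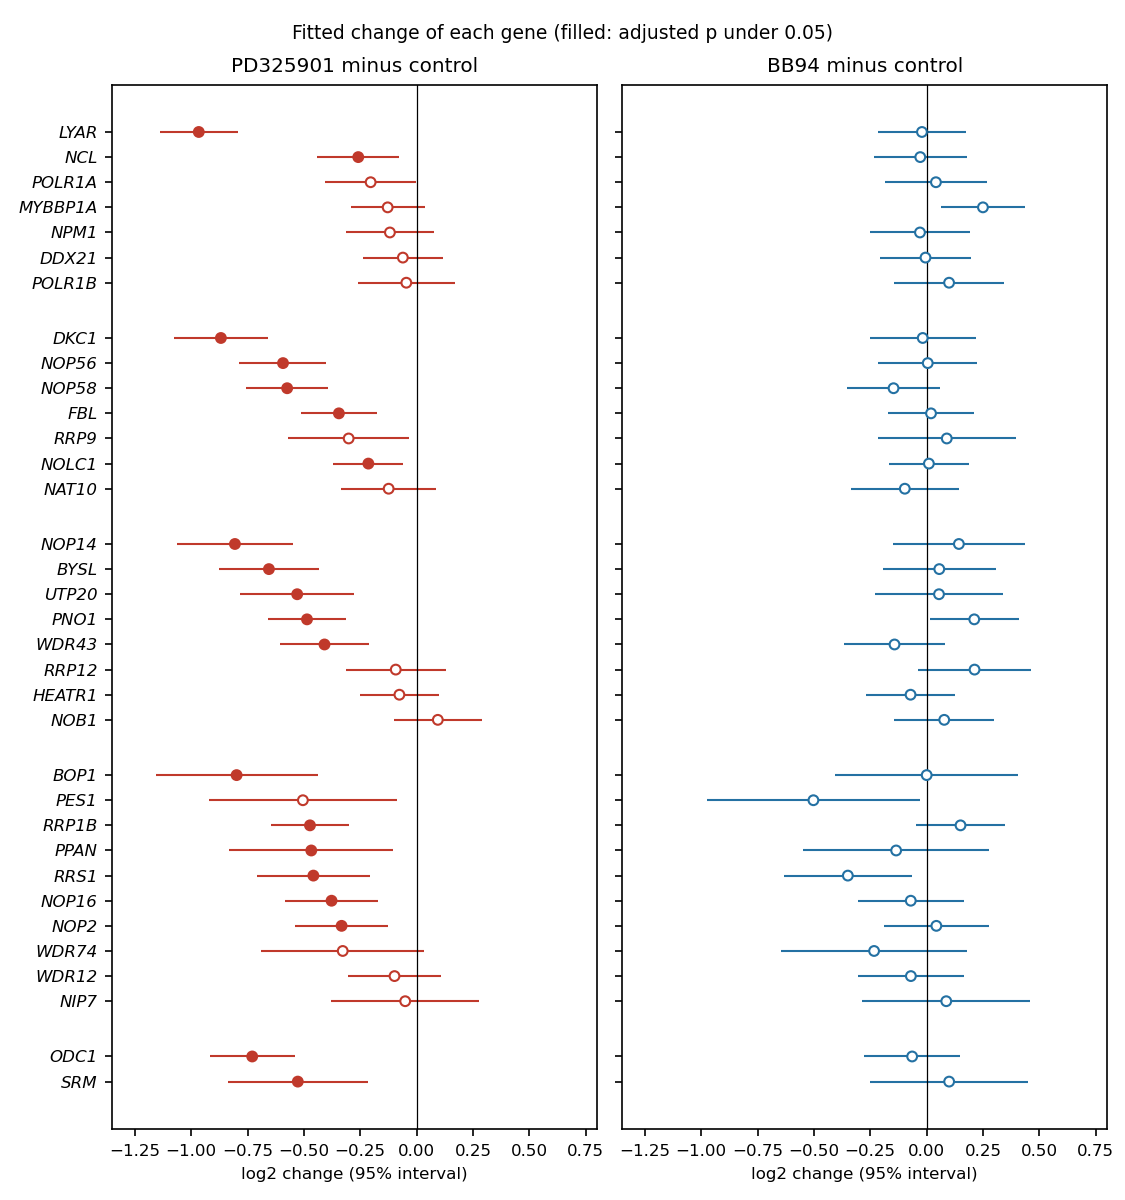
Fitted log2 change of each gene with its 95% interval from limma, PD325901 minus control at the left and BB94 minus control at the right; both use the same 4 control arrays. Filled points have an adjusted p under 0.05. At the left 20 points are filled, all below 0; at the right 0 are filled.

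PD325901 was set against BB94 directly, which tests the difference between the inhibitors. In this comparison 15 of the 34 genes were lower and 0 higher, against 10.2% of all genes called lower and 21% called higher. At an unadjusted p under 0.05, 22 were lower and 0 higher, where 39.5% of all genes differed either way. The median difference was -0.32, against 0.11 over all genes, and for 26 of the 34 all PD325901 arrays lay below both BB94 arrays, against 20.1% of all genes. The 15 were LYAR and MYBBP1A; DKC1, NOP56, NOP58 and FBL; NOP14, BYSL, PNO1 and UTP20; BOP1, RRP1B and NOP2; and ODC1 and SRM. The differences were -0.95 for LYAR (adjusted p = 2.6e-05), -0.95 for NOP14 (adjusted p = 0.00039), -0.85 for DKC1 (adjusted p = 0.00019), -0.80 for BOP1 (adjusted p = 0.0090) and -0.70 for PNO1 (adjusted p = 0.00022). MYBBP1A, not called for either inhibitor against control, differed by -0.38 between them (adjusted p = 0.0073), with 12.17, 12.10 and 12.12 under PD325901 against 12.56 and 12.45 under BB94. Its control arrays 1 to 4 stood at 12.29, 12.31, 12.21 and 12.22, below both BB94 arrays and above all PD325901 arrays. Against control, MYBBP1A changed by 0.25 under BB94 and by -0.13 under PD325901. RRS1 differed by -0.11 (adjusted p = 0.61) and PES1 by -0.0023 (adjusted p = 0.995). The PD325901 arrays are shared with the comparison against control, so the lists of genes are not independent. Without BB94 array 1 or 2, 11 of the 34 were called. Fitted over genes with a mean of at least 6, 19 of the 34 were lower, against 17.9% of those genes.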

How the data were processed

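RNA of 9 MDA-MB231 samples was measured on PrimeView arrays. The authors deposited log2 values, 1 per probe set, computed with RMA, per the series design text. They were not scaled again. Scanner settings and a genome build are not given in the sources used here. Of 49395 probe sets, 102 controls were left out. The platform annotation gave 44988 probe sets 1 symbol, 1832 several and 2473 none. Of the first, 44961 matched a RefSeq gene identifier (GRCh38.p14) and 27 kept the annotation's symbol. The probe set with the highest mean stood for each of 18132 genes, and 11734 genes had more than 1. The background level of an array was the highest of its 23 background probe sets (6.02 to 6.50), and array medians were 6.05 to 6.34. The number of arrays limits the precision. Any pair of arrays shared 387 to 1088 equal values, and 0 pairs were identical.

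The comparisons used limma 3.58.1 in R 4.3.3 (lmFit, then eBayes, with 1 coefficient for each group, no covariate, 6 residual degrees of freedom, two-sided). P-values were adjusted by Benjamini-Hochberg over all genes, and called means an adjusted p under 0.05. Every adjusted p printed comes from limma. Each p-value weighs a difference between group means against the spread between these replicate samples, moderated over all genes. Members and lists were chosen with earlier results of these data known. Values of every array are given for the 2 lowest and the 1 highest gene of each role by change under PD325901, for both polyamine genes and for MYC, and RRS1, MYBBP1A and RPL27A were added after their values were seen. Of each other list, up to 3 called genes with the largest change are named. Samples with the same replicate number did not deviate together (correlations -0.19 to 0.12), so numbers were not taken as pairs. Alternatives were the mean of probe sets, no collapse, a filter at a mean of 6, trend and robust eBayes, array weights, 2 centrings, cyclic loess, only the groups compared, a replicate block, each array left out, and control arrays 1 and 2 or 3 and 4 alone. Promoter windows are RefSeq's.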

Additional observations from a re-analysis of the deposited data

Results flagged for a closer look

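In 2 of 56 groups of 4 control values tested, 1 array stood apart from the other 3 by Dixon's criterion, and chance flags about 1 group in 20. DKC1 had a ratio of 0.887, with control array 2 at 11.00 and the others at 10.78 to 10.80. PPAN had a ratio of 0.866, with control array 3 at 8.01 and the others at 7.29 to 7.39. The DKC1 change under PD325901 was called without control array 2, and that of PPAN, at -0.30, without control array 3 (adjusted p = 0.038 in limma, against a change of -0.47 with all arrays).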

How the results depend on the processing

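Over 21 alternatives, 14 of the 20 genes called lower after PD325901 were called in every one, and NCL, NOLC1, BYSL, PPAN, NOP2 and SRM were not. The count of 20 became 32 with arrays centred on their median over genes, where the share of all genes called lower was 28% against 12.3%, and 15 to 23 with 1 array left out. That centring gave an all-gene median of -0.17, against 0.08, with 31.7% of calls higher against 65.1% in the deposited scale (52.6% centred over probe sets, 51.9% with cyclic loess). The median of the set, -0.36, was -0.61 centred over genes, -0.46 centred over probe sets, -0.43 with cyclic loess, -0.28 against control arrays 1 and 2, -0.44 against 3 and 4, and -0.40 to -0.31 with 1 array left out. Under BB94, 0 genes became 3 against control arrays 3 and 4 alone, where 4.27% of all genes were called lower and 4.74% higher against 1.09% and 0.491%, and 0 to 0 with 1 array left out. The BB94 median of 0.00 was 0.075 centred over genes and 0.11 centred over probe sets, and -0.02 to 0.04 with 1 array left out. Between the inhibitors, 15 (10.2% of all genes lower) became 30 centred over genes (27.7%), 24 centred over probe sets (19.4%), and 11 to 18 with 1 array left out (6.36% to 11.5%). The count of higher genes was 0 throughout. With the replicate block, 16 were lower after PD325901 (median -0.32), 0 were called under BB94 (0.01) and 15 between inhibitors. Changes that turned sign, none called, were DDX21 at 0.018 with cyclic loess and 0.0082 against control arrays 3 and 4, NOB1 at -0.16 and -0.0084 centred over genes and over probe sets and -0.0091 against control arrays 3 and 4, RRP12 at 0.014 against control arrays 1 and 2, and WDR12 at 0.021 and NIP7 at 0.19 against control arrays 3 and 4. With 1 array left out, POLR1B ran from -0.11 to 0.0037 (without PD325901 array 3) and NIP7 from -0.19 to 0.032 (without control array 2). The causes were not tested.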
